A study of Arabidopsis thaliana with 24 samples.

Results

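Leaf 3 of Arabidopsis thaliana was compared between a stage at which its cells still divided and a later stage at which they enlarged, in plants grown without stress. The comparison took 6 of the 24 arrays of the study. They are the 3 arrays of control leaves labelled proliferating and the 3 arrays of control leaves labelled expanding, and every change below is expanding minus proliferating unless stated otherwise. Both groups were Col-0 wild type. The proliferating leaves were taken at day 9 after sowing, at a leaf area of about 0.1 mm2, and the expanding leaves at day 15, at about 7 mm2. All 6 samples came from plants on MS medium with 0 mM mannitol, under a cycle of long light and short dark periods. The study as a whole asked how a mild, lasting osmotic stress from mannitol acts on leaves of different developmental stage, with 3 arrays in each of 8 groups. Its other leaf groups used here for comparison are the proliferating and expanding leaves of plants on 25 mM mannitol, of the same ages, and control mature leaves of day 22. The 3 replicates of a group are independent biological experiments, and each sample pooled many plants and plates, so that differences between single plants are averaged within an array. Stage, plant age, leaf size and harvest changed together between the groups and cannot be told apart.

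A leaf of Arabidopsis first grows by division, and cells then leave the mitotic cycle in a front that moves from the tip to the base. After that front has passed, cells enlarge by loosening their walls and taking up water, many of them copy their genome without dividing (the endocycle), and chloroplasts, veins and stomata mature. Only small, dispersed groups of cells, the stomatal and vascular precursors, go on dividing later. In a bulk sample, fewer cells of a type and less RNA per cell cannot be told apart, and this holds for every cell type marker below.

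Transcript levels were read as 1 log2 value per locus on ATH1 arrays, for 20777 loci. The medians of the 6 arrays lay between 5.96 and 6.13, and the expanding replicate 2 had the lowest median and the narrowest interquartile range (3.56, against 3.78 to 3.86 on the other 5). Levels under 5.11, the 40th percentile of all values, are called dim here, since detection calls were not used, and a fold change that starts or ends at a dim level is limited by the array's background. Of the genes tested, 12585 (60.6%) passed an adjusted p under 0.05 in limma. Of all genes, 29.1% (6048) rose and 31.5% (6537) fell, with a median change of 0.04 over all genes. The 3 expanding values lay wholly above or below the 3 proliferating values for 62.3% of genes. These shares are the background against which the counts of each gene group below are to be read. Since all genes together split in this way, rises and falls within 1 group do not by themselves set it apart. With a change of at least 2-fold added, 24.3% of genes (5054) were called, 11.8% (2450) higher and 12.5% (2604) lower. The balance of rises and falls depended on the scaling. With each array centred on its median, 7778 genes rose and 5773 fell, and without expanding replicate 3 the numbers were 6284 and 6285. Rises of 4-fold or more were found for 898 genes and falls of that size for 650, and at 32-fold or more the numbers were 39 and 18. A called gene crossed the dim level upward in 4.38% of all genes (911) and downward in 4.50% (936).

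**Figure D1:**
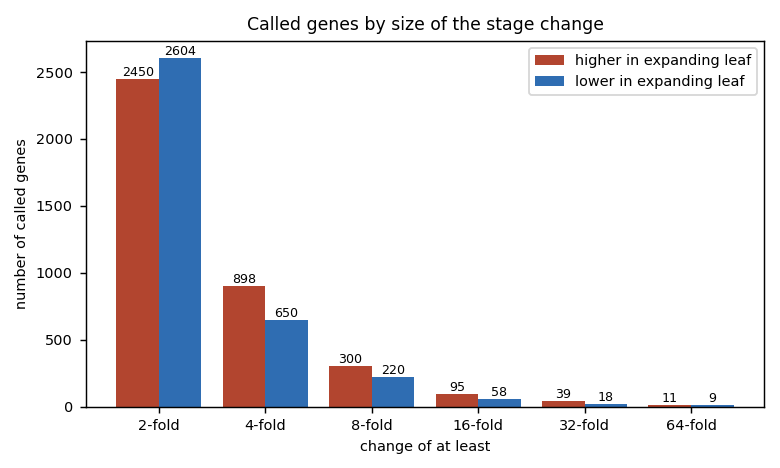
Number of called genes (vertical axis) whose change between proliferating and expanding control leaf reached each fold on the horizontal axis, as bars for genes higher and lower in expanding leaf. The bars start nearly level, at 2450 and 2604 genes from 2-fold on, and the higher genes lead from 4-fold on, with 898 against 650.

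**Figure D2:**
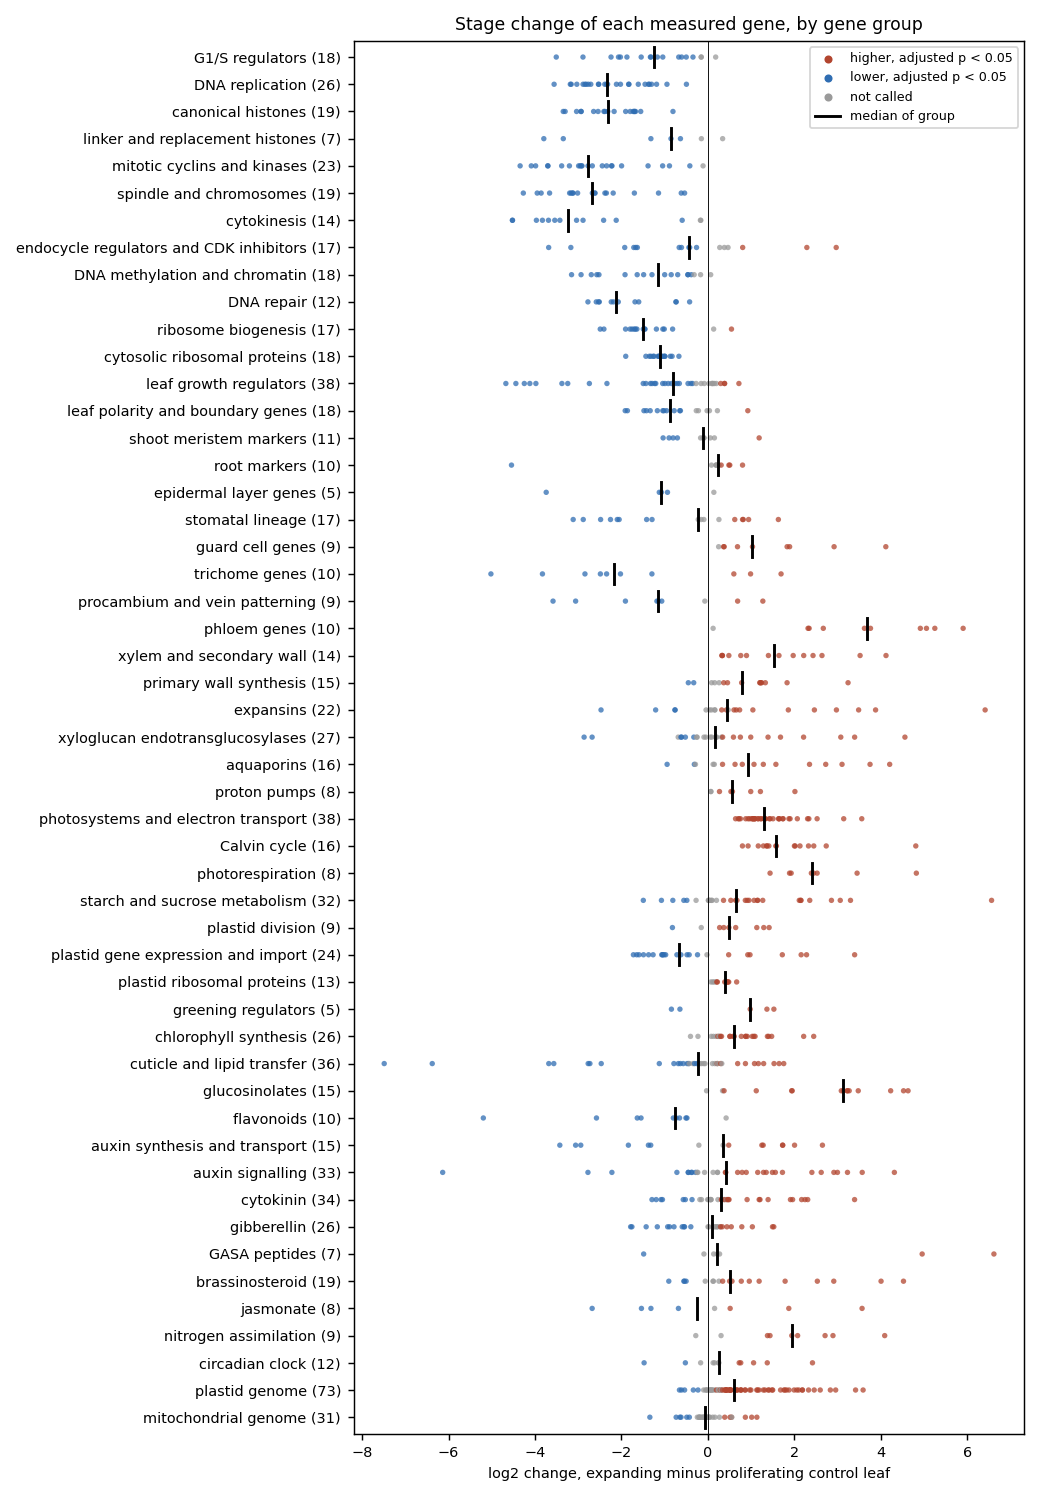
Log2 change of each measured gene (horizontal axis), 1 row per gene group with the number of measured members in brackets; colour marks the call and the black bar the group's median. The division groups at the top lie left of 0, the phloem, photosynthesis and glucosinolate groups lie right of it, and wall, hormone and plastid gene expression groups reach to both sides.

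Most genes that regulate the start of the division cycle were lower in expanding leaves, both those that drive it and those that restrain it. Of 18 measured regulators of the step from G1 to S phase, 15 fell and 0 rose, with a median change of -1.24. The 15 include RBR1 and E2FC, which restrain that step. The D-type cyclin CYCD3;1 (AT4G34160), which links growth signals to the cycle, measured 10.39, 10.07 and 10.49 in proliferating leaves and 7.46, 7.61 and 7.20 in expanding leaves. The groups were far apart, and the change was -2.89 ± 0.15 (adjusted p = 4.33e-14). Its relative CYCD3;3 (AT3G50070) changed by -3.51 ± 0.16. Beside them, CYCD6;1 (AT4G03270) changed by -2.24 ± 0.14, and the E2F factor E2F3 (AT2G36010), an activator of S-phase genes, by -1.87 ± 0.13. The D-type cyclins CYCD1;1, CYCD2;1 and CYCD5;1 did not pass the test, with changes between -0.16 and 0.18, so calls were not made for every D-type cyclin.

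Genes of the replication machinery were lower. All 26 genes counted for origin licensing and DNA synthesis fell, 24 of them by 2-fold or more, with a median of -2.33. MCM5 (AT2G07690), a subunit of the helicase that opens origins, measured 9.005, 8.87 and 9.10 in proliferating leaves and 5.72, 5.85 and 5.85 in expanding leaves. The change of -3.18 ± 0.14 (adjusted p = 2.72e-15) is 9.09-fold, and the groups did not overlap. PCNA1 (AT1G07370) and PCNA2 (AT2G29570), the sliding clamps of the DNA polymerases, changed by -3.56 ± 0.12 and -3.03 ± 0.17. The smallest fall in the list was -0.50. All 19 genes counted in a list of core histones fell as well, with a median of -2.32. Most encode canonical histones, which package newly made DNA. The list also includes the H2A variant genes GAMMA-H2AX, H2AXA, HTA6 and HTA7. The histone H2A gene HTA13 (AT3G20670) measured 12.26, 12.13 and 12.21 in proliferating leaves and 9.15, 8.48 and 9.07 in expanding leaves. Expanding replicate 2 was the lowest of its group for the 4 histones with the largest falls, yet it lay below the other 2 arrays by much less than the distance between the groups. An H3.1 gene, AT5G10400, fell by 3.35 ± 0.21 on the log2 scale, while an H3.3 gene, AT5G10980, whose protein replaces histones outside S phase, fell by 0.85 ± 0.10. Of 7 linker and replacement histone genes, 5 fell, led by the H2A.Z genes HTA8 (AT2G38810, -3.80) and HTA11 (AT3G54560, -3.35).

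Genes of mitosis and cell plate formation were lower as well. Of 23 mitotic cyclins, kinases and their regulators, 22 fell (median -2.77). They include the factors MYB3R1 and MYB3R-4 and the kinase WEE1, which restrains the cycle. All 19 spindle and chromosome genes fell (median -2.67), as did 12 of 14 cytokinesis genes (median -3.23). CYCB1;1 (AT4G37490), the cyclin that marks cells about to divide, measured 8.47, 8.70 and 8.57 in proliferating leaves and 4.48, 4.60 and 4.38 in expanding leaves. It fell 17.0-fold, from well above the dim level to below it on all 3 arrays. The S-phase and mitotic cyclin CYCA1;1 (AT1G44110) changed by -4.35 ± 0.20, the largest fall among the cyclins and kinases listed. Among spindle genes, DNA topoisomerase II (TOPII, AT3G23890) changed by -4.27 ± 0.18, the microtubule nucleation factor TPX2 (AT1G03780) by -3.95 ± 0.20 and the Aurora kinase AUR2 (AT2G25880) by -3.86 ± 0.18. HIK (AT1G18370), the kinesin HINKEL needed to build the cell plate, measured 9.20, 9.50 and 9.43 in proliferating leaves and 4.85, 4.89 and 4.83 in expanding leaves. PLE (AT5G51600), a microtubule bundling protein of the phragmoplast, also fell (-4.52 ± 0.20), and both ended below the dim level. The cytokinesis syntaxin SYP111 (AT1G08560) measured 10.91, 10.98 and 11.18 in proliferating leaves and 7.03, 7.05 and 7.08 in expanding leaves, so it fell 15.7-fold but stayed well above that level. CYCA2;1 was the only 1 of the 23 mitotic genes that did not pass (-0.11), and it was dim on all 6 arrays. Of the 14 cytokinesis genes, 9 were dim in expanding leaves and 1 in proliferating leaves.

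Regulators of the switch from mitosis to endocycle moved in both directions. The list holds the activators of the anaphase-promoting complex, which remove mitotic cyclins, and the inhibitors of cyclin-dependent kinases (CDK). It also holds other endocycle genes, namely ILP1, BIN4, RHL1, RHL2 and TOP6B. Of the 17 genes counted over the whole list, 3 rose and 11 fell. LGO (AT3G10525), the SIAMESE-related inhibitor that fosters giant epidermal cells, rose from 6.09, 5.79 and 5.98 in proliferating leaves to 9.03, 8.81 and 8.93 in expanding leaves. Its change was 2.97 ± 0.12 (adjusted p = 7.4e-16), and the groups did not overlap. ICK1 (AT2G23430), also known as KRP1, was dim in proliferating leaves and changed by 2.29 ± 0.12. Its family member ICK6 (AT5G48820), or KRP3, went the other way, from 8.29, 8.13 and 8.29 in proliferating leaves to 5.09, 5.53 and 4.59 in expanding leaves. The SIAMESE gene SIM (AT5G04470) fell (-1.71 ± 0.19), as did AT5G02220, another member of the SIAMESE-related family (-1.92 ± 0.12). The activator FZR2 (AT4G22910), or CCS52A1, which is tied to endocycle entry, rose by 0.80 ± 0.12, while FZR3 (AT5G13840), or CCS52B, known as a mitotic form, changed by -3.68 ± 0.20. The number of rises in the list was 6 without expanding replicate 3. KRP2 did not pass (0.27, adjusted p = 0.0605).

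**Figure D3:**
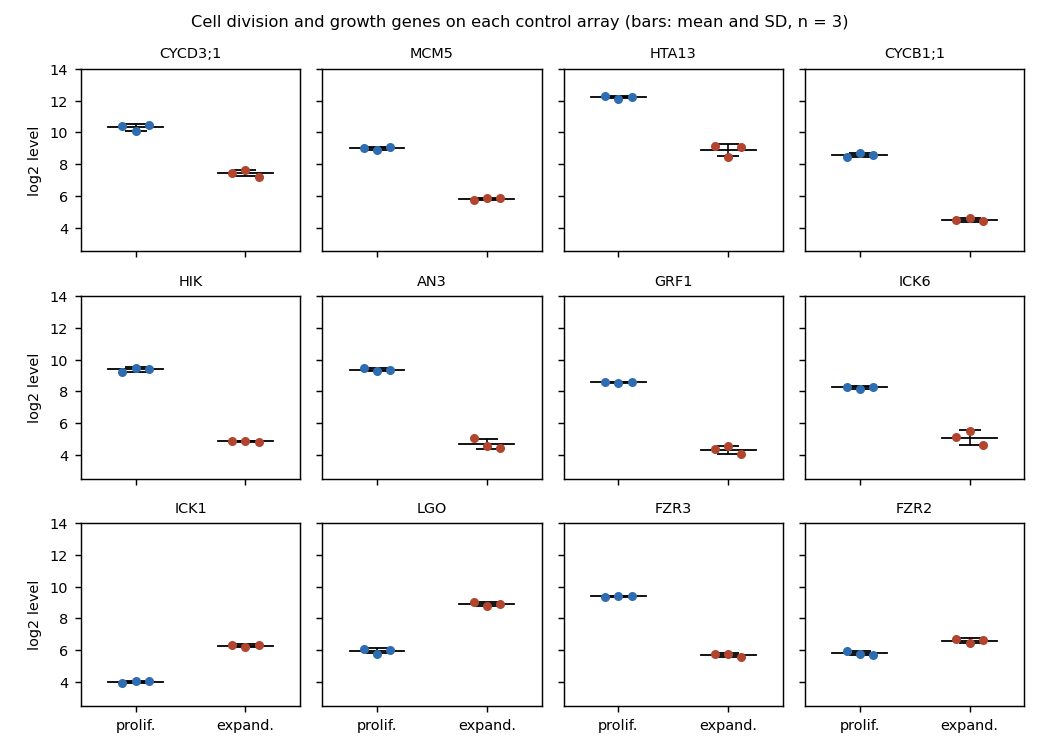
Log2 level (vertical axis) of 12 cell division and growth genes on each of the 3 proliferating and 3 expanding control arrays, with the mean and SD of each group. In every panel the 2 groups are separate; ICK1, LGO and FZR2 are higher in expanding leaf and the other 9 genes lower.

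Most genes of DNA methylation and chromatin were lower too, among them genes that copy marks after replication. Of 18 genes in that list, 15 fell and 0 rose (median -1.15). The falls were not limited to genes that copy marks, since the DNA demethylases DML1 (ROS1) and DME and the Argonaute gene AGO4 were among them. VIM1 (AT1G57820), which brings the maintenance methyltransferase to new DNA, measured 9.82, 9.71 and 9.80 in proliferating leaves and 6.87, 6.43 and 6.57 in expanding leaves. It fell 8.91-fold. The chromatin remodeller CHR1 (AT5G66750), known as DDM1, changed by -2.93 ± 0.15, the H3K27 monomethyltransferase ATXR6 (AT5G24330) by -2.70 ± 0.12 and the H3K9 methyltransferase SUVH4 (AT5G13960) by -2.57 ± 0.15. CMT2 and DRM2, methyltransferases that act outside the replication-linked pathway, did not pass (-0.32 and -0.17), nor did the Polycomb methyltransferase SWN (0.06). All 12 DNA repair genes fell (median -2.13), with BARD1 (AT1G04020) at -2.78 ± 0.13 and BRCA1 (AT4G21070) at -2.58 ± 0.14 in front.

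Genes of ribosome production were lower. All 18 genes counted for proteins of the cytosolic ribosome fell, by a median of -1.12. They moved within a narrow span, from -1.90 to -0.67. Another 15 listed genes were dropped, since symbol and locus did not match. PFL (AT1G22780), which encodes a protein of the small subunit and gives pointed first leaves when mutated, measured 12.78, 12.75 and 12.60 in proliferating leaves and 11.48, 11.41 and 11.28 in expanding leaves. The groups were apart by 2.497-fold, at levels among the highest on the array. Of 17 genes that build ribosomes in the nucleolus, 15 fell (median -1.49). The nucleolar methyltransferase fibrillarin (FIB2, AT4G25630) changed by -2.49 ± 0.24, the pseudouridine synthase NAP57 (AT3G57150) by -2.41 ± 0.21 and the box C/D protein NOP56 (AT1G56110) by -1.80 ± 0.19. The single rise was that of AT1G08410, an orthologue of yeast Lsg1 (0.55 ± 0.21, adjusted p = 0.0311), and the number of rises was 0 without proliferating replicate 1 and without expanding replicates 2 or 3.

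Of 38 regulators of leaf growth, 25 fell and 4 rose (median -0.80). The coactivator AN3 (AT5G28640) and the growth-regulating factors that it binds keep cells dividing. GRF1 (AT2G22840) measured 8.56, 8.50 and 8.60 in proliferating leaves and 4.35, 4.53 and 4.04 in expanding leaves, and GRF3 (AT2G36400) measured 8.65, 8.46 and 8.39 in proliferating leaves and 4.54, 4.29 and 4.31 in expanding leaves. Both fell from a clearly measured level to a dim one, with changes of -4.25 ± 0.17 and -4.12 ± 0.13. AN3 itself changed by -4.68 ± 0.20 and the AP2 factor ANT (AT4G37750), which prolongs division, by -4.44 ± 0.17. Of 8 listed CIN-class TCP factors, which promote the exit from division, 2 rose, 4 fell and 2 did not pass, a subset counted after its values were seen. TCP3 (AT1G53230) rose from 7.15, 7.34 and 7.27 in proliferating leaves to 7.94, 8.08 and 7.90 in expanding leaves. Its change was 0.72 ± 0.11 and that of TCP4 (AT3G15030) was 0.39 ± 0.12. The NGATHA factor NGA1 (AT2G46870) rose by 0.38 ± 0.10. ARGOS and ARL, growth promoters of the same family, did not pass (0.15 and 0.12).

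Among genes that set the upper and lower leaf side and the organ boundary, 12 of 18 fell and 1 rose. The YABBY gene AFO (AT2G45190), or FILAMENTOUS FLOWER, a marker of the lower side, measured 10.52, 10.14 and 10.58 in proliferating leaves and 8.50, 8.67 and 8.48 in expanding leaves. It fell by 1.86 ± 0.13 on the log2 scale, and AS2 (AT1G65620), a marker of the upper side, by 1.91 ± 0.12. YAB5 (AT2G26580), of the same YABBY family, was the single rise (0.92 ± 0.12), and the number of rises was 2 without proliferating replicate 1. Of 11 shoot meristem markers, 7 were dim at both stages, 1 rose and 4 fell. The rise was that of the receptor kinase CLV1 (AT1G75820, 1.19 ± 0.13), and the largest fall was that of LSH3 (AT2G31160, -1.04 ± 0.23). STM, which defines the meristem, measured 5.37, 4.49 and 4.88 in proliferating leaves and 4.68, 4.90 and 4.89 in expanding leaves and did not pass (adjusted p = 0.683). WUS and CLV3 were dim on all 6 arrays. Of 10 root markers, 8 were dim at both stages, 4 rose and 1 fell. The number of rises was 8 with median centring and 1 without dim genes. The fall was that of PYK10 (AT3G09260), a beta-glucosidase of ER bodies that is also known from young shoots, at 11.35, 11.03 and 11.34 in proliferating leaves and 7.51, 5.59 and 6.99 in expanding leaves.

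The reference table gives 97 measured genes a name with the words transcription factor, of which 17 rose and 44 fell. Factors whose name there lacks those words, such as ANT, GRF1, MYB0 and HBI1, are outside this count and ranking. Among the 97, the largest falls were those of MP (AT1G19850, -3.58), an auxin response factor that starts veins and organs, GATA17 (AT3G16870, -2.79) and HSFB4 (AT1G46264, -2.05). Next came CPC (AT2G46410, -2.02) and GATA15 (AT3G06740, -1.99). The largest rises among the 97 were those of AT3G06590 (1.83), which the table names AIF2, GATA3 (AT4G34680, 1.4998) and GNC (AT5G56860, 1.37). Members of the GATA family thus stood at both ends of this subset.

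Genes of the stomatal lineage moved in both directions, as 8 of 17 fell, 5 rose and 4 did not pass. SPCH (AT5G53210), which starts the lineage, measured 8.79, 8.98 and 9.12 in proliferating leaves and 6.22, 6.27 and 5.75 in expanding leaves. The secreted peptide EPF2 (AT1G34245), which limits entry into the lineage, fell by 3.12 ± 0.14, and the receptor kinases ERL1 (AT5G62230) and ERL2 (AT5G07180), which sense such peptides, by 2.48 ± 0.15 and 2.25 ± 0.15. MUTE, which acts next, did not pass and was near or below the dim level (4.87, 5.14 and 4.89 in proliferating leaves and 4.84, 4.97 and 4.81 in expanding leaves). FMA (AT3G24140), which completes guard cell differentiation, rose from 5.07, 5.57 and 5.55 in proliferating leaves to 7.04, 6.78 and 7.27 in expanding leaves. Its change was 1.63 ± 0.14. The late peptide EPF1 (AT2G20875) and the inner-leaf peptide STOMAGEN (AT4G12970), which promotes stomata, rose by 0.94 ± 0.13 and 0.82 ± 0.13. Of 9 genes of mature guard cells, 8 rose and 0 fell. In proliferating leaves 7 of the 9 were dim, and 2 were dim at both stages, so the size of most of these changes is limited by the array's background. The potassium channel KAT1 (AT5G46240) measured 3.21, 3.17 and 3.24 in proliferating leaves and 7.30, 7.30 and 7.38 in expanding leaves. It went from dim to 17.4-fold higher (adjusted p = 1.14e-16). MYB60 (AT1G08810), a regulator of stomatal opening, changed by 2.92 ± 0.16, and the anion channel ALMT12 (AT4G17970) by 1.89 ± 0.12.

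Trichome genes moved in both directions. Of 10, 7 fell and 3 rose. MYB0 (AT3G27920), or GLABRA1, the activator that starts a leaf hair, measured 8.98, 8.67 and 9.01 in proliferating leaves and 3.80, 3.89 and 3.90 in expanding leaves. Its fall was 32.5-fold, to a dim level on all 3 arrays. Its partner EGL3 (AT1G63650) changed by -3.83 ± 0.15 and the downstream homeobox gene GL2 (AT1G79840) by -2.84 ± 0.17. TRY (AT5G53200), an inhibitor that keeps neighbouring cells from becoming hairs, rose from 6.11, 5.88 and 5.83 in proliferating leaves to 7.65, 7.69 and 7.56 in expanding leaves. CPC, a small protein of the same inhibitor family, fell. In the outer layer, 4 of 5 epidermal genes fell. PDF1 (AT2G42840), a protein of young epidermis, measured 12.92, 12.83 and 12.95 in proliferating leaves and 9.42, 8.96 and 9.10 in expanding leaves, and the epidermal homeobox gene ATML1 (AT4G21750) changed by -0.94 ± 0.10.

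Vascular genes moved in both directions. Of 9 genes of vein patterning and the procambium, 6 fell and 2 rose. MP measured 9.98, 10.07 and 10.11 in proliferating leaves and 6.43, 6.55 and 6.43 in expanding leaves, and its change was -3.58 ± 0.17. By contrast 9 of 10 phloem genes rose, with a median of 3.69, the highest of all groups examined. In proliferating leaves 9 of the 10 were dim, so the size of most of these changes is limited by the array's background. HA3 (AT5G57350), a proton pump of companion cells, measured 4.24, 4.201 and 3.99 in proliferating leaves and 10.18, 10.02 and 9.95 in expanding leaves. Its rise was 60.0-fold (adjusted p = 5.23e-20). SWEET11 (AT3G48740), which releases sucrose towards the phloem, rose by 4.92 ± 0.13, and the phloem lectin PP2-A1 (AT4G19840) by 5.06 ± 0.11. The callose synthase CalS7 did not pass and was dim on all 6 arrays. All 14 xylem and secondary wall genes rose (median 1.52). Of them, 13 were dim in proliferating leaves and 6 at both stages, and 8 rose when dim genes were left out. XCP2 (AT1G20850), a protease of dying vessel cells, measured 5.01, 5.75 and 5.08 in proliferating leaves and 9.33, 9.41 and 9.47 in expanding leaves. XCP1 (AT4G35350), its close relative, changed by 3.52 ± 0.22, and the lignin laccase LAC17 (AT5G60020) by 2.64 ± 0.15.

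Within families of wall loosening genes, some members rose and others fell, as did 29.1% and 31.5% of all genes. Expansins loosen the wall at acid pH. Of 22, 12 rose and 4 fell. EXPA8 (AT2G40610) measured 4.62, 4.89 and 4.93 in proliferating leaves and 10.90, 11.51 and 11.28 in expanding leaves. It rose 85.3-fold, from a dim level to one of the high levels of the family. EXPA1 (AT1G69530) and EXLB1 (AT4G17030) rose by 3.49 ± 0.16 and 3.88 ± 0.22. EXPA15 (AT2G03090), by contrast, fell from 9.69, 10.29 and 10.60 in proliferating leaves to 7.66, 7.88 and 7.61 in expanding leaves. Its change of -2.47 ± 0.18 and that of EXPA20 (AT4G38210, -1.21 ± 0.17) were the 2 largest falls of the family. Xyloglucan endotransglucosylases (XTH) cut and rejoin the hemicellulose that ties cellulose together. Of 27, 10 rose and 6 fell, with 13 dim at both stages. XTH31 (AT3G44990) measured 5.12, 4.98 and 4.90 in proliferating leaves and 9.41, 9.44 and 9.84 in expanding leaves. XTH9 (AT4G03210) measured 12.01, 11.98 and 12.15 in proliferating leaves and 9.66, 9.25 and 9.18 in expanding leaves. The former rose 23.6-fold and the latter fell 6.41-fold, each without overlap. TCH4 (AT5G57560), a touch-induced member, changed by -2.86 ± 0.24 and XTH7 (AT4G37800) by 3.08 ± 0.13.

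Wall synthesis, water channels and proton pumps were mostly higher. Of 15 primary wall genes, 10 rose and 2 fell, and the number of falls was 1 without proliferating replicates 1 or 3 or without expanding replicate 2. CSLC04 (AT3G28180), a synthase of the xyloglucan backbone, measured 5.01, 5.66 and 5.40 in proliferating leaves and 8.69, 8.49 and 8.63 in expanding leaves. Cellulose synthase CESA2 (AT4G39350) changed by 1.83 ± 0.08. The xyloglucan xylosyltransferase XT1 (AT3G62720) went the other way (-0.45 ± 0.12). Of 16 aquaporins, which let water cross membranes, 11 rose and 2 fell. The vacuolar TIP2;2 (AT4G17340) measured 5.40, 5.55 and 5.52 in proliferating leaves and 9.72, 9.50 and 9.86 in expanding leaves. It rose 18.5-fold, and the plasma membrane channels PIP1;5 (AT4G23400) and PIP1A (AT3G61430) rose by 3.75 ± 0.13 and 3.104 ± 0.10. PIP2;5 (AT3G54820) fell by 0.94 ± 0.09. Of 8 proton pump genes, 6 rose and 0 fell, with the plasma membrane pump HA2 (AT4G30190) in front (2.01 ± 0.17).

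**Figure D4:**
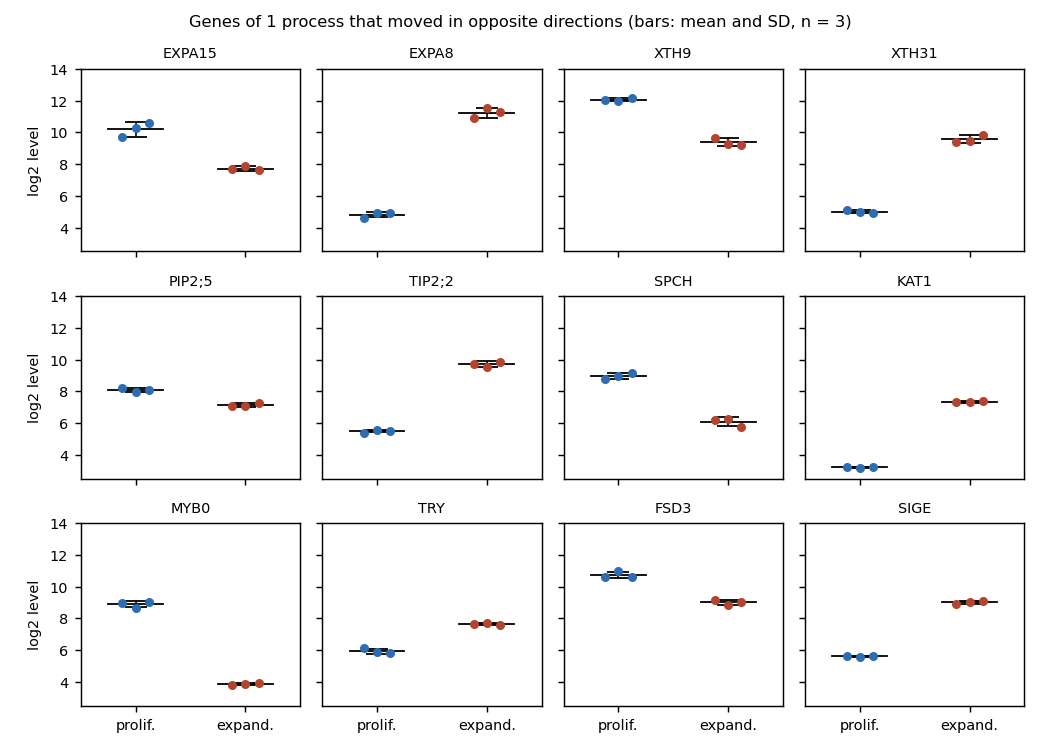
Log2 level (vertical axis) on each of the 3 proliferating and 3 expanding control arrays, with the mean and SD of each group, for expansins, XTH genes, aquaporins, stomatal genes, trichome genes and nuclear genes of plastid transcription. The first gene of each pair is lower in expanding leaf and the second higher, with no overlap of groups in any panel.

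The photosynthetic genes counted rose without exception. All 38 measured nuclear genes of the photosystems and electron transport rose, 31 of them by 2-fold or more. Another 8 listed genes, CAB1 and LHCB3 among them, were not measured. The group was already highly expressed. Its median lay between 11.91 and 12.13 on the proliferating arrays and between 13.37 and 13.41 on the expanding ones. The spread within the list was wide. The antenna gene LHCB4.3 (AT2G40100) measured 6.51, 6.54 and 6.45 in proliferating leaves and 9.83, 10.08 and 10.26 in expanding leaves, a 11.8-fold rise, while the smallest change in the list was 0.64. All 16 measured Calvin cycle genes rose (median 1.58), while the 4 listed RBCS genes were not measured. CP12-2 (AT3G62410), a regulator that holds 2 cycle enzymes inactive in the dark, measured 6.42, 7.03 and 6.32 in proliferating leaves and 11.25, 11.53 and 11.43 in expanding leaves. The next in size was the fructose bisphosphatase HCEF1 (AT3G54050, 2.74 ± 0.15). Genes of photorespiration, which recovers carbon after Rubisco takes oxygen, rose as well. All 8 genes counted were higher by 2-fold or more, with a median of 2.42. The peroxisomal catalase CAT2 (AT4G35090) measured 8.33, 8.82 and 8.31 in proliferating leaves and 13.37, 13.22 and 13.33 in expanding leaves. It rose 28.3-fold (adjusted p = 5.42e-19), and the aminotransferase AGT (AT2G13360) changed by 3.45 ± 0.17.

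Genes that build the chloroplast did not rise as 1 group. Of 26 chlorophyll synthesis genes, 19 rose and 0 fell, led by HEMA1 (AT1G58290, 2.45 ± 0.18), which makes the committed precursor, and the chlorophyll b synthase CH1 (AT1G44446, 2.22 ± 0.14). PORA and PORB, the light-dependent reductases of etiolated seedlings and young tissue, did not pass (0.26 and -0.40), whereas POR C (AT1G03630) rose by 1.48 ± 0.14. Among 24 genes of plastid transcription and protein import, 7 rose and 16 fell. Sigma factors, which direct the bacterial-type polymerase to promoters, supplied the largest rises. SIGE (AT5G24120) measured 5.62, 5.60 and 5.62 in proliferating leaves and 8.94, 9.02 and 9.07 in expanding leaves, and SIGA (AT1G64860) and SIG4 (AT5G13730) rose by 2.28 ± 0.11 and 2.16 ± 0.14. Of 8 listed genes for proteins associated with that polymerase, a subset counted after its values were seen, 8 fell, by between 0.43 and 1.72 on the log2 scale. FSD3 (AT5G23310) measured 10.63, 10.98 and 10.64 in proliferating leaves and 9.18, 8.85 and 9.05 in expanding leaves, and PRIN2 (AT1G10522) and FLN2 (AT1G69200) changed by -1.65 ± 0.14 and -1.59 ± 0.16. The inner-envelope import gene Tic20-I (AT1G04940) fell as well (-1.49 ± 0.16). Plastid division genes rose in 7 of 9 cases, with the dynamin-like ARC5 (AT3G19720) at 1.42 ± 0.10, while FTSZ1-1 (AT5G55280), a protein of the division ring, fell by 0.82 ± 0.09. Plastid ribosomal protein genes rose in 9 of 13 cases, none of them by 2-fold, while every gene counted for the cytosolic ribosome fell. Of the greening regulators, GPRI1 (AT2G20570, GLK1) and GLK2 (AT5G44190) rose by 1.53 ± 0.11 and 0.98 ± 0.11, GNC rose, and its close relative CGA1 (AT4G26150) fell by 0.84 ± 0.15.

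Transcripts of the plastid genome rose for 53 of 73 loci and fell for 5. The largest rise was that of ATCG00270, at 8.16, 9.46 and 9.33 in proliferating leaves and 12.46, 12.72 and 12.55 in expanding leaves. Proliferating replicate 1 was lower than its 2 partners for the 4 plastid loci with the largest rises, by over 1 log2 unit, but the groups did not overlap. Mitochondrial transcripts were dim at both stages for 21 of 31 loci. They rose for 6 and fell for 6, shares below those over all genes.

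Sugar and nitrogen genes were mostly higher. Of 32 starch and sucrose genes, 19 rose and 5 fell. The sucrose phosphate synthase ATSPS4F (AT4G10120) measured 3.295, 3.22 and 3.48 in proliferating leaves and 9.88, 9.82 and 9.98 in expanding leaves. The chloroplast beta-amylase CT-BMY (AT4G17090), which degrades starch at night, changed by 3.06 ± 0.22, and the vacuolar invertase ATBETAFRUCT4 (AT1G12240) by 3.2995 ± 0.13. The invertases counted differed from each other. The cell wall invertase ATBFRUCT1 (AT3G13790), an enzyme of sugar-importing tissue, fell by 1.49 ± 0.41 and the cytosolic CINV1 (AT1G35580) by 0.81 ± 0.10. A further listed gene, BFRUCT3 (AT1G62660), was dropped, since its symbol and locus did not match. Of 9 nitrogen genes, 7 rose and 0 fell. The nitrate transporter NRT1.1 (AT1G12110) measured 5.76, 5.48 and 5.41 in proliferating leaves and 9.76, 9.55 and 9.62 in expanding leaves. Nitrite reductase NIR1 (AT2G15620) and nitrate reductase NIA2 (AT1G37130) rose by 2.89 ± 0.16 and 2.71 ± 0.11, while the second nitrate reductase NIA1 did not pass (-0.28).

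Most genes of glucosinolates, which are defence compounds, rose, and most flavonoid genes fell. Of 15 glucosinolate genes, 13 rose and 0 fell. In proliferating leaves 8 of the 15 were dim, and 2 were dim at both stages, so the size of many of these changes is limited by the array's background. CYP83A1 (AT4G13770), an enzyme of the aliphatic branch, measured 6.28, 5.07 and 5.62 in proliferating leaves and 10.33, 10.28 and 10.26 in expanding leaves. The chain elongation enzyme MAM1 (AT5G23010) changed by 4.53 ± 0.31. For these and for BCAT4 (AT3G19710, 4.23 ± 0.31) proliferating replicate 1 was the highest of its group, but still far below the expanding arrays. Flavonoid genes fell in 9 of 10 cases. DFR (AT5G42800), the first enzyme set aside for anthocyanins, measured 9.62, 9.92 and 10.47 in proliferating leaves and 4.89, 4.82 and 4.70 in expanding leaves. The anthocyanin regulator PAP1 (AT1G56650), of the MYB family, changed by -2.58 ± 0.23. Chalcone synthase TT4, which feeds every branch, did not pass (0.42, adjusted p = 0.0853).

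Of 36 cuticle and lipid transfer genes, 10 rose and 16 fell, and the list held some of the deepest falls. The lipid transfer gene LTP6 (AT3G08770) measured 13.36, 13.20 and 13.30 in proliferating leaves and 9.68, 9.77 and 9.71 in expanding leaves. PEL3 (AT5G23940), an acyltransferase of cutin assembly, measured 9.997, 10.23 and 10.66 in proliferating leaves and 3.77, 3.998 and 3.98 in expanding leaves. It fell 83.2-fold, to a dim level. The largest rises in the list were those of another lipid transfer gene, LTP5 (AT3G51600, 1.76 ± 0.13), the wax elongase KCS1 (AT1G01120, 1.65 ± 0.15), the MYB factor MYB16 (AT5G15310, 1.53 ± 0.19) and the wax exporter ABCG12 (AT1G51500, 1.29 ± 0.11).

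Auxin genes moved in both directions. Of 15 genes of auxin synthesis and transport, 7 rose and 6 fell. The synthesis genes YUC4 (AT5G11320) and YUC1 (AT4G32540) fell by 2.94 ± 0.12 and 1.84 ± 0.12. The auxin exporter PIN7 (AT1G23080) measured 5.34, 5.63 and 5.52 in proliferating leaves and 7.90, 8.33 and 8.22 in expanding leaves. It rose without overlap, and its relatives PIN3 (AT1G70940) and PIN4 (AT2G01420) rose by 2.01 ± 0.13 and 1.73 ± 0.12. PID (AT2G34650), a kinase that acts in auxin transport, changed by -3.43 ± 0.11. Of 33 signalling and response genes, 18 rose and 9 fell. The largest rises were those of Aux/IAA repressors. IAA7 (AT3G23050) measured 5.83, 6.001 and 5.85 in proliferating leaves and 10.29, 10.09 and 10.24 in expanding leaves, and IAA14 (AT4G14550) and SHY2 (AT1G04240, IAA3) rose by 3.57 ± 0.18 and 3.23 ± 0.13. GH3.3 (AT2G23170), whose enzyme conjugates auxin to amino acids, measured 10.07, 9.67 and 9.83 in proliferating leaves and 3.78, 3.75 and 3.63 in expanding leaves. Its 70.4-fold fall was the deepest of any hormone gene examined, and WES1 (AT4G27260, GH3.5) changed by -2.78 ± 0.18.

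Type-A regulators were the largest rises among cytokinin genes. Of 34 cytokinin genes, 16 rose and 7 fell. The type-A response regulator ARR6 (AT5G62920), which is induced by cytokinin and dampens the signal, measured 4.11, 4.63 and 4.17 in proliferating leaves and 7.81, 7.64 and 7.64 in expanding leaves. ARR9 (AT3G57040), RR3 (AT2G41310) and ARR4 (AT1G10470) of the same type rose by 2.31 ± 0.14, 2.25 ± 0.20 and 2.17 ± 0.17. The type-B activator RR10 (AT4G31920) fell by 1.05 ± 0.09, and the cytokinin response factor CRF2 (AT4G23750) by 1.29 ± 0.12. Gibberellin genes rose in 8 and fell in 11 of 26 cases, beside 29.1% and 31.5% of all genes. Within them the last synthesis steps GA20OX1 (AT4G25420) and GA3OX1 (AT1G15550) rose by 1.52 ± 0.14 and 1.49 ± 0.17, the early synthesis gene GA3 (AT5G25900) fell by 1.43 ± 0.12 and the receptor GID1B (AT3G63010) by 1.76 ± 0.16. Of 7 GASA peptides, named for their response to gibberellin, 2 rose and 1 fell. GASA6 (AT1G74670) measured 4.78, 4.81 and 5.45 in proliferating leaves and 11.47, 11.80 and 11.62 in expanding leaves, GASA1 (AT1G75750) changed by 4.96 ± 0.14, and GASA4 (AT5G15230) fell by 1.49 ± 0.13. The number of rises was 4 without expanding replicate 3.

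Brassinosteroid genes rose in 11 and fell in 4 of 19 cases. The rises were largest for growth-promoting helix-loop-helix factors. HBI1 (AT2G18300) measured 5.29, 5.09 and 4.84 in proliferating leaves and 9.63, 9.55 and 9.62 in expanding leaves. BEE2 (AT4G36540) and PRE1 (AT5G39860) rose by 4.01 ± 0.13 and 2.91 ± 0.18. The receptor BRI1 did not pass (0.13, adjusted p = 0.285), and the sterol reductase DWF1 (AT3G19820) fell by 0.91 ± 0.09. Among 8 jasmonate genes the early synthesis enzymes LOX2 (AT3G45140) and AOS (AT5G42650) rose by 3.57 ± 0.29 and 1.87 ± 0.14, whereas the reductase OPR3 (AT2G06050) fell by 1.32 ± 0.14 and the response regulator MYC2 (AT1G32640) by 2.68 ± 0.20. Clock genes can mark a difference in the hour of harvest or in clock phase. Of 12, 5 rose and 2 fell. The morning gene CCA1 (AT2G46830) measured 9.56, 9.56 and 9.31 in proliferating leaves and 10.97, 10.89 and 10.69 in expanding leaves, and the evening gene TOC1 (AT5G61380) measured 7.36, 7.28 and 7.22 in proliferating leaves and 5.87, 5.86 and 5.70 in expanding leaves. They moved in opposite directions without overlap, while LHY, the partner of CCA1, did not pass (0.25, adjusted p = 0.186). The hour of harvest is not given in the sources used here, and its part in these results was not tested.

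The largest changes of single genes fell on loci of several kinds. AT1G66100, which the reference table does not name, measured 4.24, 4.49 and 4.40 in proliferating leaves and 12.50, 12.42 and 12.36 in expanding leaves. It rose 265-fold (adjusted p = 2.54e-21), to one of the higher levels on the array. Named genes among the 20 largest rises were the aldolase FBA5 (AT4G26530, 6.10 ± 0.18), the carotenoid cleavage dioxygenase NCED4 (AT4G19170, 5.75 ± 0.14), the receptor-like kinase CRK21 (AT4G23290, 5.77 ± 0.14) and the alpha carbonic anhydrase ACA1 (AT3G52720, 5.68 ± 0.14). ECS1 (AT1G31580) measured 7.75, 7.26 and 7.38 in proliferating leaves and 13.32, 13.12 and 13.23 in expanding leaves. The defence gene PCC1 (AT3G22231), named for its response to pathogens and the clock, measured 5.08, 5.24 and 5.25 in proliferating leaves and 11.67, 10.70 and 11.03 in expanding leaves, with the widest spread of expanding values among the 20. Among the 20 deepest falls, CDEF1 (AT4G30140), an enzyme that breaks down cutin, measured 12.33, 11.72 and 12.18 in proliferating leaves and 4.17, 4.24 and 4.06 in expanding leaves. AGP31 (AT1G28290), an arabinogalactan protein, changed by -5.61 ± 0.18, PRB1 (AT2G14580), a basic pathogenesis-related protein, by -5.18 ± 0.17, and the desaturase FTM1 (AT1G43800) by -4.92 ± 0.32. For FTM1, proliferating replicate 3 (7.07) was lower than its partners (8.97 and 8.56) but far above the expanding arrays.

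The same stage change was measured on separate arrays in plants grown on 25 mM mannitol. There 65.0% of genes (13502) were called, 33.2% higher and 31.8% lower. Of the control calls, 11194 were also called with the same sign under mannitol, which is 88.9% of the control calls and 82.9% of the mannitol calls, and 15 were called with the opposite sign. Group medians were -2.77 in control and -2.36 under mannitol for mitotic cyclins, kinases and their regulators. They were 3.69 and 3.40 for phloem genes, and 1.30 and 1.30 for the photosystems. The difference of the 2 changes was called for 1.30% of genes (270, of which 134 positive and 136 negative), against 11.5% at an unadjusted p under 0.05. The count was 175 without proliferating control replicate 3 and 145 when only the 12 leaf arrays entered the fit. In the cuticle list 6 of 36 genes had a called difference. The lipid transfer gene LTP2 (AT2G38530) measured 12.62, 12.03 and 12.16 in proliferating leaves and 4.68, 5.19 and 4.47 in expanding leaves, a change of -7.49 ± 0.27. Under mannitol it measured 13.63, 12.64 and 13.00 in proliferating leaves and 10.82, 10.75 and 11.04 in expanding leaves, a change of -2.22, and the difference of the changes was 5.27 (adjusted p = 4.61e-08). At the expanding stage the 3 mannitol values were far above the 3 control values. At the proliferating stage they were also above, though the lowest mannitol value (12.64) barely passed the highest control value (12.62). All values of that stage were within 2 log2 units. LTP3 (AT5G59320) fell by 3.68 ± 0.51 in control and changed by 0.28 under mannitol (adjusted p = 0.639). The pectin methylesterase ATPMEPCRB (AT4G02330) changed by -2.15 in control and 0.71 under mannitol. The calmodulin-like gene CAM9 (AT3G51920) and the glycine-rich protein gene GRP-3 (AT2G05520) rose in both, by 3.46 and 2.09, and by 2.69 and 1.12.

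**Figure D5:**
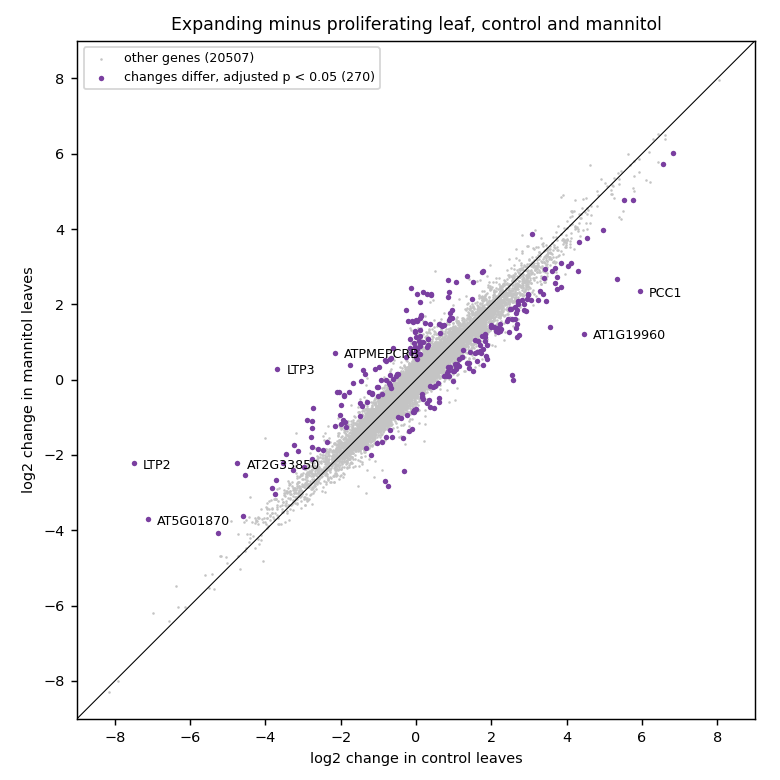
Log2 change from proliferating to expanding leaf in control plants (horizontal axis) against the same change in mannitol plants (vertical axis), 1 point per gene, with the line of equal change. The 270 genes whose 2 changes differ are marked, and LTP2, AT5G01870 and PCC1 lie far from the line while most genes lie along it.

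From the expanding to the mature control leaf, 18.8% of genes rose and 21.6% fell. This step shares the expanding control arrays with the comparison above, so the 2 sets of changes are only given side by side. Replication genes changed by a median of -2.33 in the first step and -0.82 in the second, and cytosolic ribosomal protein genes by -1.12 and -0.73. For the photosystems the medians were 1.30 and -0.06, and for phloem genes 3.69 and 0.08. Xylem and secondary wall genes had medians of 1.52 and -0.69, and 10 of 14 fell in the second step. The protease XCP1 changed by 3.52 and then by -2.99. Expansins had medians of 0.45 and -0.75, and 14 of 22 fell in the second step. Among single genes, CYCD3;1 changed by -2.89 and then -2.53, PDF1 by -3.74 and -4.35, XTH9 by -2.68 and -4.08, and the guard cell channel KAT1 by 4.12 and -1.72.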

How the data were processed

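The authors deposited 1 log2 value per locus and array, made with RMA per the submitters' processing notes (background correction, normalization between arrays and summary of probes). The RMA version, the probe grouping and the number of RMA runs are not stated by the labels. The number of arrays limits the precision. Samples were grouped by title and stress label, since the treatment field names mannitol for every sample.

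The deposited values were used as they stand. All 24 arrays entered 1 limma fit (version 3.58.1, R 4.3.3) of 8 group means, with empirical Bayes moderation and Benjamini-Hochberg adjustment over 20777 genes. The threshold for a call was an adjusted p of 0.05. The ± values are standard errors of the log2 change, with n = 3 arrays per group. The steps were checked on data with known changes. RMA compresses changes of dim genes, and values at the array's background have no reliable order.

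Symbols came from the reference table of the TAIR10.1 assembly, which holds 20508 of the loci. Genes were described in 51 groups with 946 measured memberships, after 45 memberships whose symbol and locus did not match were dropped. The members and lists were chosen with earlier results of these data known. The genes named are the 20 largest rises and falls without overlap, up to 4 called rises and falls of each list, the largest changes of transcription factors, the 10 smallest p of the difference between mannitol and control, and members said not to pass. Replicates with the same number did not deviate together. Alternatives were the 6 arrays alone (for the comparison with mannitol, the 12 leaf arrays), a replicate block, median centring, quantile normalization, a filter on dim genes, a trended robust prior, and leaving out each array.

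Results for 1 gene are not reported here.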

Additional observations from a re-analysis of the deposited data

Results flagged for a closer look

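The change from proliferating to expanding leaf was compared between mannitol and control plants in limma's test of the difference. For 31 of the genes named by the rule given above, the changes differed in that test (adjusted p under 0.05). The genes named for the stage change numbered 517, and the test called 1.30% of all genes (270). The rule given above itself takes genes with the smallest p of this difference, so part of the 31 were called by construction. The count of 31 therefore cannot be compared with the share over all genes. List members outside that rule were not counted here, and every ranking below is among these 31 genes. The differences below are log2 change under mannitol minus log2 change in control. The widest positive differences were those of the lipid transfer genes LTP2 (5.27) and LTP3 (3.96) and of AT5G01870 (3.40), each of which fell in control plants and either fell less or did not pass under mannitol. ATPMEPCRB fell in control plants and differed by 2.86. AT2G33850, PYK10 and AT3G05600, which also fell in control plants, differed by 2.52, 2.02 and 1.19. AT3G46280 and AT3G62550 rose under mannitol by more than in control plants, with differences of 1.96 and 1.86. Smaller positive differences were those of PIP2;5 (0.92), GASA4 (0.87), GA3 (0.73) and PDF1 (0.72).

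PCC1 had the widest negative difference, -3.60, and AT1G19960 followed with -3.24. AT2G32160, GRP-3 and CAM9 rose less under mannitol, by -2.16, -1.57 and -1.37. Among genes with growth, transport or metabolic roles, KAT1 and PIP1;5 each differed by -1.02, GASA1 by -0.98, ECS1 by -0.98, ATSPS4F by -0.83, AT1G22690 by -0.82, SIGE by -0.70 and GSR2 by -0.68. The clock gene RVE1 differed by -0.86 and the light-signalling factor HY5 by -0.89. AT3G10930 fell further under mannitol, with a difference of -1.87. The mitochondrial loci ATMG01370 and ATMG00650 differed by -2.08 and -0.74, and ATMG00650 was dim in both control groups. The call was lost in at least 1 alternative for 11 of these 31 genes, and the sign was the same in every alternative run.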

How the results depend on the processing

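No named gene that was called changed sign in the alternatives run. Of 333 named stage calls, 322 held in every alternative that tested them and 11 were lost in at least 1: AT1G08410, AT3G62550, ATCG00330, ATMG01220, COI1, DFL1, EXPA7, JAZ1, NGA4, SPS2F and XT2. Calls for the stage change numbered 12585 in the reported fit, 11515 with the 6 arrays alone, 13551 with median centring (7778 higher and 5773 lower, against 6048 and 6537), 12305 with quantile normalization, 10830 without dim genes and 11706 to 12569 with 1 array left out. Centring moved the median change of all genes by 0.10 on the log2 scale, so smaller changes depend on the scaling. The median over the genes tested was 0.04 with dim genes and -0.12 without them. With centring, rises numbered 5 for endocycle regulators, 2 each for ribosome biogenesis and leaf polarity, 8 for root markers and 5 for GASA peptides, and primary wall falls numbered 1. Without dim genes, rises numbered 1 for root markers and 8 for xylem, and plastid genome falls numbered 3, since fewer genes were tested. With the 6 arrays alone, primary wall falls numbered 1 and plastid genome falls 3. With 1 array left out, rises ranged from 3 to 6 for endocycle regulators, 0 to 1 for ribosome biogenesis, 1 to 2 for leaf polarity and 2 to 4 for GASA peptides, and primary wall falls from 1 to 2. The difference between mannitol and control was called for 145 genes with the 12 arrays alone and for 175 to 301 with 1 array left out. The cause of these shifts was not tested except as stated. With a replicate block there were 12673 stage calls and 277 differences. Same-numbered control samples of both stages correlated at 0.02, -0.10 and -0.003 in their deviations, and they were not treated as pairs. Signal over background limits changes of dim genes.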
